A study of Mus musculus with 24 samples.

Results

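Cytosolic ribosomal proteins are the protein parts of the ribosome outside mitochondria, and their transcripts were followed here around the circadian cycle in the mouse adrenal gland. Members were the genes whose array symbol begins with Rpl or Rps and a number, with Rplp0, Rplp1, Rplp2 and Rpsa, without S6 kinases and pseudogene symbols. The rule found 50 genes among the 18193 gene symbols that label a probe set by themselves, with 106 probe sets, of which the brightest stands for each gene. Another 31 symbols that fit the rule, Rplp1 and Rpl5 among them, label only probe sets that carry several symbols, and these genes could not be measured one by one. One member, Rps19bp1, fits the rule by its symbol but encodes a protein that binds ribosomal protein S19, so counts are also given without it.

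Each ribosome joins a small subunit, which reads the messenger RNA, to a large subunit, which forms the peptide bond. Ribosomal protein messenger RNAs are among the most abundant in the cell, and many begin with a C and a run of pyrimidines, the 5′ terminal oligopyrimidine (TOP) tract, through which mTOR signalling controls their translation. In mouse liver, translation of TOP messengers has been described to follow a daily rhythm, so that transcript level is only one layer of their control.

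The study measured total RNA of whole adrenals of male C57B/6J mice, 3 months old, with Affymetrix mouse arrays. Mice had lived for 2 weeks in 12 h of light and 12 h of darkness and were killed in constant darkness, 12 time points in steps of 4 h. The first point was 38 h and the last 82 h after lights off, and each has 2 deposited columns. No treatment, mutant or control group was included, and the labels give time as the only difference between groups. Projected circadian time, the hours after lights off minus 12 and taken within 24 h, gives 6 times (2, 6, 10, 14, 18 and 22), counted from the hour of expected lights on. Whether arrays with the same hours are from different animals is not in the labels, and p-values therefore cover the spread between these samples only, which may be technical.

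Pairs of deposited columns with near-identical values, 6 in all, were averaged and counted once, which left 18 profiles, 3 at each circadian time. In 5 of the 6 pairs the labels of the columns are 24 h apart, so the cycle of these profiles is not known, and a time point can hold fewer than 2 separate arrays. Profiles at circadian times 10 and 18 formed a second array set of 6, told apart from the 12 profiles at the other times by the ThrX-3 labelling control (513 to 1821 against 56.3 to 101). The labels name no such sets. Markers of the adrenal cortex (9 of 9 on the array) and medulla (7 of 7) passed the signal filter. RNA integrity can be read from Gapdh, as 5′ signal over 3′ signal, and this ratio was 1.05 to 1.13 in the first set and 0.846 to 0.949 at circadian time 10, and at circadian time 18 it reached 0.978 in the highest profile and 0.0386 in 78 h replicate 2. The muscle gene Acta1 had a signal over 1000 in 4 profiles of the second set. The clock genes checked the time labels: all 4 were rhythmic, with peaks at circadian times 21.8 (Arntl), 6.9 (Nr1d1), 9.5 (Dbp) and 13.7 (Per2).

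The annotated starts of 8 members are shown because the TOP tract is the feature by which this family is usually recognised, and because members of different behaviour below can then be compared. Each line gives 10 bases before and 16 from the annotated start on GRCm38.p6 (RefSeq), 5′ to 3′, with capitals for the stretch of a C and at least 4 pyrimidines whose C lies nearest the start; other such stretches are left in lower case. The first 3 genes were higher at circadian time 18 than at 10, the next 3 had no such call on their brightest probe set, and the last 2 were higher but have no tract in this window.
Rplp2 (chr7:141447641-141447666, + strand): cagcgtcttcCTTTCgccgccggacg
Rps10 (chr17:27635229-27635254, - strand): gcgcacgcccCTTCCTTTCCagcctc
Rpl38 (chr11:114668570-114668595, + strand): aagcctcgttCTTTCCCCgttctctt
Rpl13a (chr7:45128730-45128755, - strand): cctgcgacaagaCCTCCTCCTTTCCC
Rps18 (chr17:33955650-33955675, - strand): cacttccgctCTCTCTTCCacaggag
Rpl35 (chr2:39005116-39005141, - strand): ccgccctttcCTCTTTCTCTCgaacc
Rplp0 (chr5:115559457-115559482, + strand): cgggtttcgaggaccgcctggttctc
Rpl41 (chr10:128549153-128549178, - strand): gggccggctcggaagtgacgacaccg
Such a tract, starting within 10 bases of the annotated start, was found for 27 of the 44 members in the RefSeq promoter table, in 53.8% of their 52 promoters against 30.7% of all 32851 promoters. Among tested members in the table, 12 of the 18 called higher at circadian time 18 had it, and so did 12 of the other 22. The letters CCGGAAG, the core bound by the ETS family factor GABP, stood on either strand in 40.4% of the members' promoters (300 bases) and in 8.86% of all. The E-box CACGTG, read by the clock factors BMAL1 and CLOCK, stood in 9.62% of members' promoters and 7.15% of all, and the D-box TTATGTAA in 0 of 52 against 0.938% of all. No motif overlaps another in these letters, and a match is not evidence of binding.

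The transcripts were among the brightest on the array. Levels are log2 of the deposited intensity plus 51, and levels of different probe sets cannot be compared as amounts of RNA. Of the 50 members, 46 passed the filter on low signal (a mean signal of at least about 183), and the median of their mean levels was 13.11, against 9.51 over all 13880 genes tested. A mean of 13 or more was reached by 28 members and by 107 genes in all. Rps29, a zinc-binding protein of the small subunit, was the brightest at 13.67, followed by Rps18, Rpl13a, Rps28 and Rps2, while the highest signal of any probe set in a profile was 13.67 to 13.80. The mean level of 19 members lay within 0.5 log2 units of that highest signal.

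The dim members need their probe sets stated. Rpl12, Rps16, Rpl3l (the muscle paralog of Rpl3) and Rpl39l (the testis paralog of Rpl39) did not pass the filter. For Rpl12 and Rps16 a probe set that carries several symbols had a mean level of 13.03 and 13.47, so their own dim probe sets do not show that the genes were off. A brighter shared set was found for 10 members in all, among them Rpl14, Rpl27a, Rps25, Rps27 and Rps6, whose own probe sets had means of 8.78, 9.61, 8.36, 8.04 and 10.59 and whose shared ones had 13.14, 13.27, 12.96, 13.06 and 13.23. Of the 8 tested members under a mean of 11, 3 had no brighter shared probe set: Rpl7l1 (10.57), Rps4l (9.66) and Rps19bp1 (9.57).

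Over the 4 circadian times of the first array set, the members' levels differed little. The mean of each circadian time is over 3 profiles, and the gap between the highest and the lowest of the 4 means had a median of 0.045 log2 units, a 1.03-fold change, over the members and 0.179 over all genes tested. The gap was under 0.1 for 37 of 46 members and for 18.3% of all genes. With limma's moderated F test over the 4 times, 0 of 46 members passed an adjusted p of 0.05, and 10.5% of all genes did. At an unadjusted p under 0.05 there were 2 members, Rpl22l1 and Rps4l, against 27.3% of all genes. Without 82 h replicate 1, Rpl22l1, the paralog of Rpl22, was called (adjusted p = 0.0363).

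Rpl13a, a large subunit protein whose transcript is often used as a reference in quantitative PCR, had the smallest gap of all genes tested, 0.0059, on its brightest probe set. Its level was 13.49, 13.53 and 13.45 in the 3 profiles at circadian time 2. At circadian time 6 it was 13.52, 13.49 and 13.47. The values were 13.51, 13.47 and 13.48 at circadian time 14, and 13.50, 13.50 and 13.47 at circadian time 22. The 4 times overlapped fully, and in the second set the values were 13.50, 13.51 and 13.54 at circadian time 10 and 13.48, 13.59 and 13.52 at circadian time 18. The evenness over the array sets was not shared by all probe sets of Rpl13a. Its own set with a mean level of 12.82 had a difference of 0.37 between circadian times 18 and 10 (limma, adjusted p = 1.3e-06 over all probe sets), and the set at 11.76 was rhythmic (adjusted p = 0.0368). The set at 13.12 had a difference of -0.06 and was not called in either test.

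Rps18 and Rps29, both of the small subunit, had gaps of 0.044 and 0.022, wider than that of Rpl13a, where the members' median was 0.045. Rps18 ran from 13.44 to 13.56 over the first set and Rps29 from 13.64 to 13.72. Rpl11, which with Rpl5 and 5S RNA can bind the p53 regulator Mdm2, ran from 13.01 to 13.10. Rpsa, the laminin receptor precursor that also sits in the small subunit, ran from 12.99 to 13.08. The SD over the 12 profiles of the first set had a median of 0.032 over the members and 0.119 over all genes.

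Bright probe sets of other genes were also even, though less so. Among genes with a mean of 13 or more, the median gap in the first set was 0.040 over the 28 members and 0.070 over the 79 other genes, and the gap was under 0.1 for 28 of the 28 and for 68.4% of the 79. Small gaps thus went with bright probe sets in members and in other genes, and the part of brightness in the members' evenness was not tested.

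**Figure D1:**
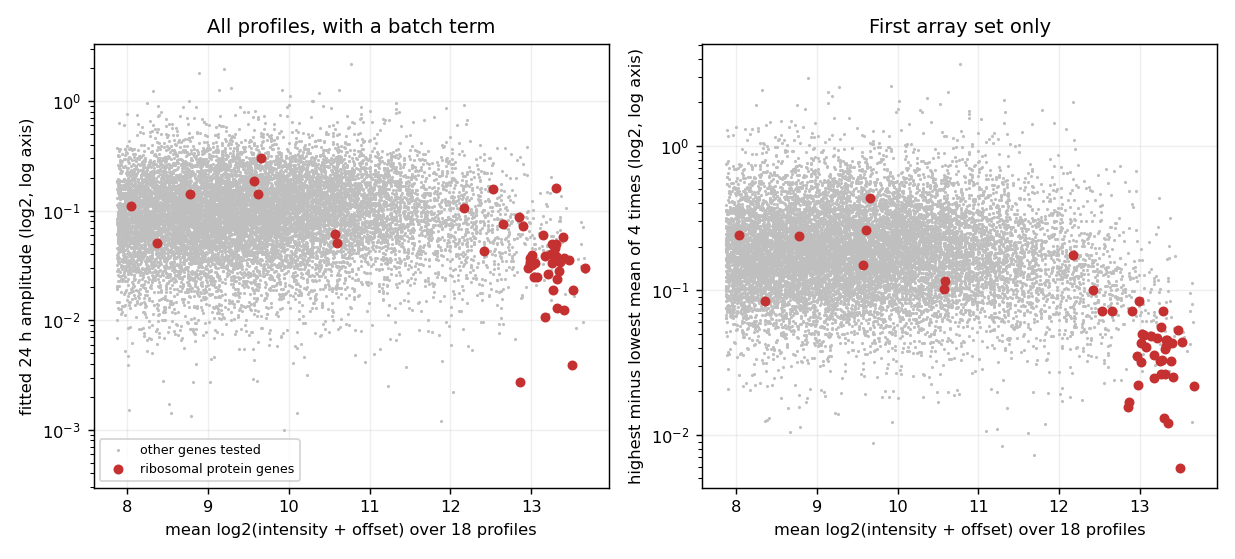
Size of variation against mean level for all genes tested, with ribosomal protein genes in red and log vertical axes. Left, amplitude of the 24 h cosine over 18 profiles; right, highest minus lowest of the 4 circadian time means in the first array set. Most members lie at a mean level above 12, where the grey points also fall lower, and Rpl13a is the lowest red point on the right, at 0.0059.

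A 24 h rhythm was detected in 1 member. With a 24 h cosine and a term for the array set (limma, moderated F test), 1 of 46 members passed an adjusted p of 0.05, or 2.17% of the members, while 17.9% of all genes tested did. The member was Rps4l, a gene like the small subunit protein gene Rps4. Without the array set term the count was 1 of 46 against 12.8% of all genes, and within the first set 0 of 46 against 12.3%. At an unadjusted p under 0.05 there were 2 members in the first set, against 27.9% of all genes. Amplitude, how far the fitted peak lies above the fitted mean, had a median of 0.038 log2 units over the members (a peak-to-trough ratio of 1.06) and 0.093 over all genes, and was under 0.1 for 38 of 46 members.

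Rps4l was at 10.17, 9.70 and 10.05 at circadian time 2 and at 9.78, 9.91 and 9.79 at circadian time 6. It was at 8.98, 9.05 and 8.96 at circadian time 10 and at 9.29, 9.79 and 9.65 at circadian time 14. At circadian time 18 it was 9.52, 9.37 and 9.83, and at circadian time 22 it was 9.86, 10.12 and 10.05. The 3 profiles at circadian time 10 lay below the other 15, and the highest values fell at circadian times 22 and 2, with overlap between these and the rest of the first set. The fitted amplitude was 0.30 (SE 0.07), a peak-to-trough ratio of 1.52, with the peak at circadian time 22.9 and an adjusted p of 0.0099. In the first set alone the adjusted p was 0.0727, and the call was not made there.

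The next members just missed the threshold and were not called: Rps27l (adjusted p = 0.0516), Rplp2 (0.0517) and Rpl8 (0.0525) in the same limma fit. Their fitted peaks were at circadian times 19.2, 19.8 and 20.1. For these 3 the first set alone gave adjusted p-values of 0.553, 0.535 and 0.957 and the lowest levels of all 3 were at circadian time 10. Counts of rhythmic members moved with single profiles. The count was 5 without 58 h replicate 1, 5 without 82 h replicate 1 and 5 without the pair of 66 h replicate 1 and 42 h replicate 2. It was 4 without 66 h replicate 2, 4 without the pair of 58 h replicate 2 and 82 h replicate 2, 3 without 42 h replicate 1 and 2 without 54 h replicate 2. Shares over all genes were not counted with single profiles left out.

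At circadian time 10 many members were low. All 3 profiles of that time lay below the other 15 in 19 of 46 members (18 of 45 without Rps19bp1), which is 41.3%, and in 8.71% of all genes tested. Of the other 15 profiles, 12 are of the first array set, so array set and circadian time are mixed in this count. Within the second array set, circadian time 18 was compared with circadian time 10 by limma, with free levels of the 6 times. The level was higher at 18 in 20 of 46 members and lower in 1, against 11.6% and 9.57% of all genes tested. Without Rps19bp1 the counts were 19 higher and 1 lower of 45. The median difference was 0.11 log2 units over the members and -0.0003 over all genes, and it was above 0 in 36 of 46 members and in 50.0% of all genes. In whole glands, less RNA per cell and fewer cells of a type cannot be told apart.

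Members of both subunits were among those called. Subunits were taken from the symbol alone, so that paralogs such as Rpl7l1 are counted with them. In the large subunit 10 of 23 members were higher at circadian time 18 and 1, Rpl7l1, was lower, with a median difference of 0.14. In the small subunit 9 of 22 were higher and 0 lower, with a median difference of 0.06.

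The stalk proteins of the large subunit, P0 and its acidic partners, bind the elongation factors that drive each step of translation. Rplp2 encodes 1 of the acidic partners and showed the widest difference of any member on the brightest probe sets. It was at 12.73, 12.76 and 12.83 at circadian time 10 and at 13.34, 13.29 and 13.46 at circadian time 18, and the first set ran from 13.37 to 13.46. Circadian time 10 thus stood alone, while circadian time 18 reached into the range of the first set. The difference was 0.59 (SE 0.04), 1.51-fold, with an adjusted p of 2.0e-07. Rplp0, the stalk base, also common as a reference transcript, was at 13.05, 13.07 and 13.11 at circadian time 10, at 13.27, 13.30 and 13.14 at circadian time 18 and from 13.27 to 13.34 in the first set. Its difference of 0.16 (SE 0.04) was past the threshold (adjusted p = 0.0084).

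Rps27l, the paralog of Rps27 known as a p53 target, was at 12.10, 12.10 and 11.99 at circadian time 10, at 12.61, 12.54 and 12.69 at circadian time 18 and from 12.56 to 12.73 in the first set. The difference was 0.55 (SE 0.06), 1.47-fold (adjusted p = 5.4e-06). Again circadian time 10 lay below all other profiles, while circadian time 18 overlapped the first set. Its other tested probe sets, 2 in all, differed by 0.49 and 0.62.

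Rpl8, a large subunit protein next to the peptide-bond-forming centre, was at 12.62, 12.70 and 12.70 at circadian time 10 and at 13.01, 12.92 and 12.96 at circadian time 18, with 12.80 to 12.91 in the first set. Here circadian time 18 was also above the first set, as it was in Rps6 and Rps7, 3 of 46 members against 1.84% of all genes tested, and the difference was 0.29 (SE 0.04, adjusted p = 0.00014). Rps19, a small subunit protein whose loss causes Diamond-Blackfan anaemia, was at 12.72, 12.77 and 12.72 against 12.98, 12.94 and 12.99, with 12.87 to 12.98 in the first set. Its difference was 0.23 (SE 0.03, adjusted p = 0.00016). Rpl19, a protein of the large subunit, was at 12.77, 12.85 and 12.77 against 13.03, 13.01 and 13.06, and all 6 values lay below the first set (13.22 to 13.33). Its difference was 0.24 (SE 0.04, adjusted p = 0.00022).

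Differences in the same direction were also called in Rpl41, the shortest ribosomal protein, with 0.23 (SE 0.04), and in Rpl39, which lines the exit tunnel of the new peptide, with 0.25 (SE 0.05). Rpl22l1 had 0.27 (SE 0.07) and Rps7 and Rps3a1, both small subunit proteins, 0.15 (SE 0.03) and 0.12 (SE 0.04). A brighter probe set that Rpl39 shares with another symbol (mean level 13.27) had -0.08 and was not called over all probe sets. Rps27 was called on its dim own set (0.41) and not on its brighter shared set (0.12). For Rps25 the brighter shared set was called (0.24) and the dim own set (-0.15) was not. The 1 member called lower at circadian time 18 was Rpl7l1, a gene like Rpl7, with 10.52, 10.48 and 10.48 at circadian time 10 and 10.40, 10.30 and 10.20 at circadian time 18, a difference of -0.19 (SE 0.06, adjusted p = 0.0272). The first set lay higher, from 10.55 to 10.74. Its other probe sets differed by -0.11 and 0.13 and were not called.

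Members without a call on their brightest probe set had differences of 0.01 (SE 0.03) in Rpl13a, 0.01 (SE 0.03) in Rps2, 0.05 (SE 0.04) in Rps4x and -0.08 (SE 0.04) in Rps29. These sets lie near the highest signal of the array, and a dimmer set of Rpl13a was called, so small values on them do not show that the transcripts did not differ. The difference was 0.11 (SE 0.05) in Rpl11 and 0.04 (SE 0.05) in Rpsa. The error was larger in Rps14, with -0.16 (SE 0.12) at a level of 13.31, and in Rps9, with -0.09 (SE 0.08). It was larger again in dim probe sets, as in Rpl27a with -0.21 (SE 0.21) and Rpl14 with 0.25 (SE 0.14). For Rps6, the S6 kinase substrate, the own probe set gave 0.18 (SE 0.08) at a level of 10.59, and the brighter shared sets of this gene cannot be assigned to it alone.

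**Figure D2:**
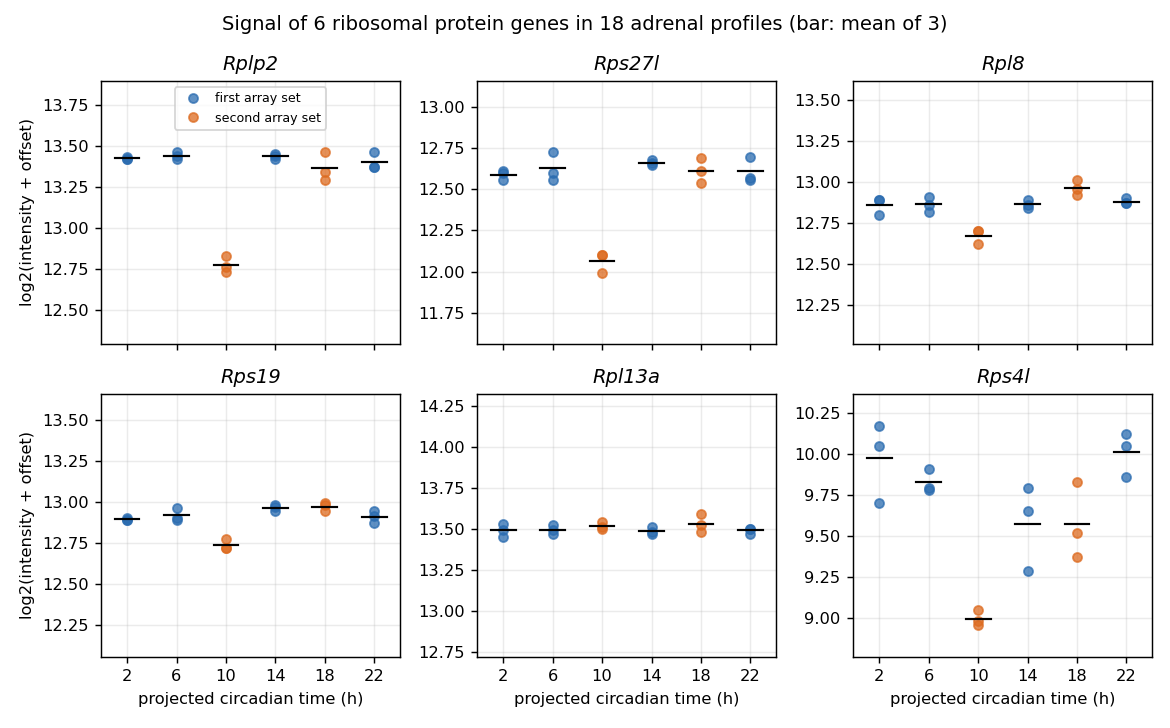
Level of 6 members in each of 18 profiles against projected circadian time in hours, with the mean of 3 profiles as a bar and vertical axes of equal span. Rplp2, Rps27l, Rpl8 and Rps19 are lowest at circadian time 10 (second array set), Rpl13a is level at about 13.5 at all times, and Rps4l is highest at circadian times 22 and 2.

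The difference between circadian times 18 and 10 rested on few arrays. With the spread taken from the second set alone, 6 members stayed past the threshold, all higher at 18: Rplp2, Rps27l, Rpl8, Rps19, Rpl19 and Rps4l. After quantile normalization between arrays 13 were called, 12 of them higher. Shares over all genes were not counted for these alternatives. Leaving out the 4 profiles with Acta1 over 1000 keeps 1 profile at each of these times, and that contrast of 1 against 1, with the spread pooled over all times, gave 11 called, all higher, with 0.53 for Rplp2 and 0.45 for Rps27l. Of the 21 main calls, 9 were among these, and all 21 kept their sign. Rpl8, Rps19 and Rpl19 lost their call in this contrast, with 0.22, 0.17 and 0.16 (adjusted p = 0.0724, 0.0932 and 0.128). Over 16 alternatives each, Rplp2 and Rpl19 ran from 0.52 to 0.63 and from 0.16 to 0.26.

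Markers of other tissues are given beside this difference. Of the muscle markers 2 of 8 passed the filter and of the liver markers 3 of 6, and the muscle genes Mylpf, Tnnt3 and Myh4 were listed at 0 in some arrays. The summed signal of the 8 skeletal muscle markers was 995 to 15130 at circadian time 10 and 1587 to 39550 at 18, that of the 6 liver markers 1871 to 2331 and then 2337 to 18680, and that of the 9 cortex markers 78500 to 83300 and then 73260 to 88390. The first set had 1045 to 1377 for muscle, 1165 to 2893 for liver and 86560 to 92080 for cortex. Markers of exocrine pancreas and kidney, 4 on the array and 2 past the filter, summed to 3051 to 3156 at circadian time 10, 3553 to 4094 at 18 and 3609 to 4306 in the first set, low at circadian time 10 as many members were. Among them Cela1, a pancreatic elastase, had a difference of 0.51 (SE 0.08, limma, adjusted p = 0.0002). The other marker past the filter, Kap, went the other way, with -0.32 (SE 0.12, adjusted p = 0.0664). The 5 endothelium markers summed to 7580 to 7610 at circadian time 10, 7042 to 8320 at 18 and 8508 to 10600 in the first set. The 3 red blood cell markers summed to 1093 to 1554, then 821 to 1724, and 637 to 855 in the first set. The 7 macrophage and lymphocyte markers, all past the filter, summed to 7952 to 9032, then 6632 to 7769, and 4593 to 9143 in the first set. Albumin, a defining liver marker, read 742 to 934 at circadian time 10, 771 to 8621 at 18 and 72.9 to 1199 in the first set. The part of other tissue, of RNA integrity or of array handling in the members' difference was not tested beyond the fits above.

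**Figure D3:**
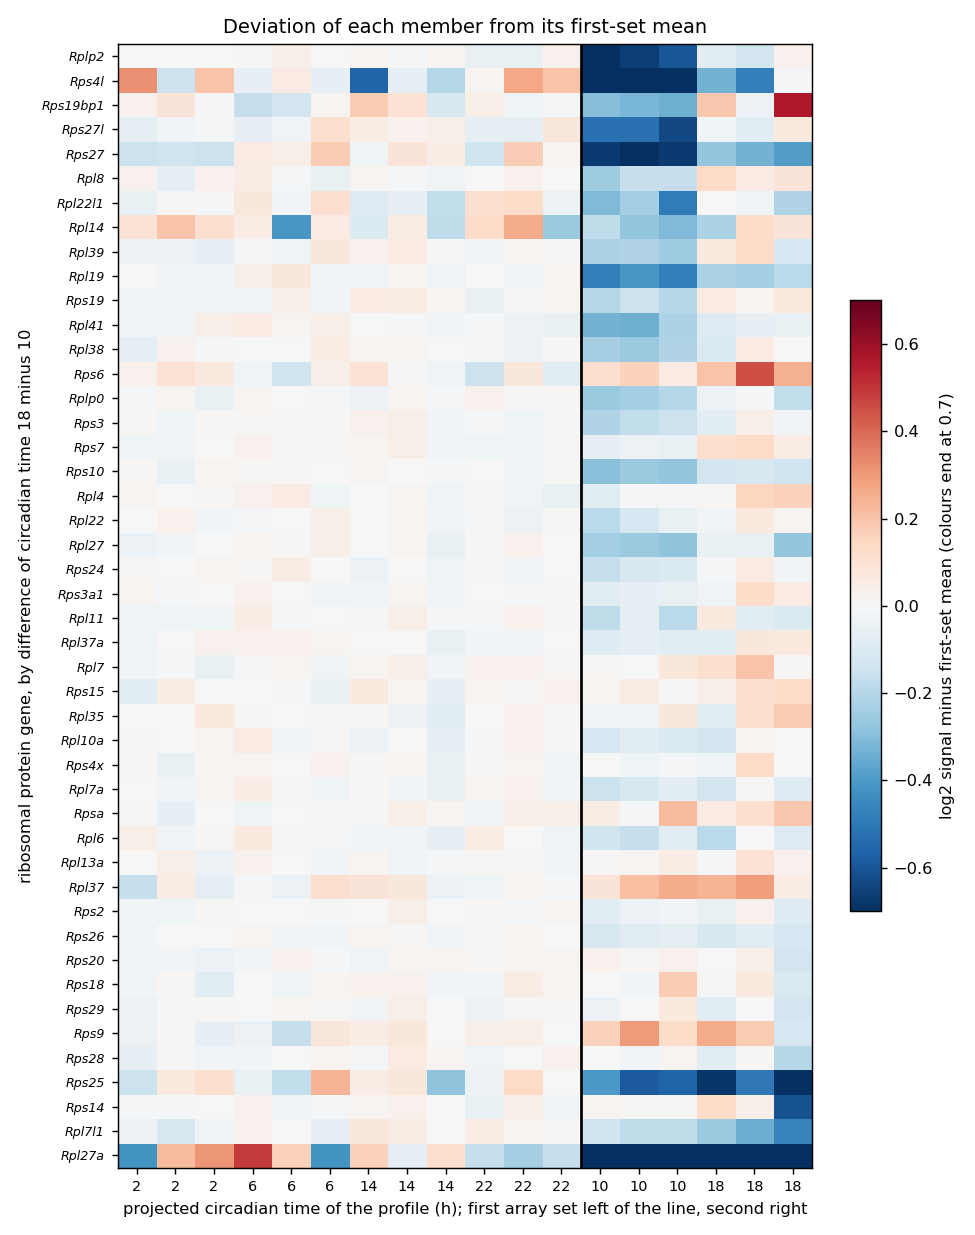
Level of each tested member minus its mean over the first array set, in log2 units, for 18 profiles ordered by array set and circadian time and for 46 members ordered by the difference between circadian times 18 and 10. The 3 columns at circadian time 10 are blue for the upper rows, among them Rplp2 at the top, and pale for most rows below the middle; Rpl27a at the bottom is low in all 6 profiles of the second set.

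Between the array sets, members differed about as often as other genes. Beside the cosine, the array set term was past the threshold in 23 of 46 members (50.0%) and in 46.5% of all genes tested, with 20 members lower in the second set (29.6% of all genes) and 3 higher (16.9%). After quantile normalization 23 members were again called, 12 lower and 11 higher, so the split of directions depends on the scaling. Of the 23 called before, 15 were called again, 12 lower and 3 higher, each in the same direction, and 8 of the new calls were on other members. The widest differences were in dim probe sets: Rpl27a had a mean of 10.03 in the first set and 8.77 in the second, and the fitted difference was -1.29 (SE 0.14). Rps27 had -0.57 (SE 0.09), Rps25 -0.56 (SE 0.08) and Rps4l -0.41 (SE 0.10), and Rplp2 (-0.36, SE 0.08) was the only bright one among the first 5. The 3 members higher in the second set were Rps6 (0.21, SE 0.06), Rpl37 (0.16, SE 0.05) and Rpsa (0.09, SE 0.04).

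The array also carries 3 control probe sets for 18S ribosomal RNA, the RNA that the proteins of the small subunit bind. Their signals were 5323 to 6869 (5′), 4082 to 5249 (middle) and 5171 to 6357 (3′) in the first set. At circadian time 10 they were 857 to 1041, 1633 to 1736 and 2440 to 2589, and at circadian time 18 they were 74.3 to 679, 101 to 997 and 606 to 1967. The array sets did not overlap in any of the 3, and set and circadian time cannot be told apart here.

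Between the first and the second cycle in darkness no member passed the test. With circadian time as a factor, over the 13 profiles whose labels give 1 cycle alone, limma called 0 of 46 members and 0.0% of all genes tested, and at an unadjusted p under 0.05 there were 1 member and 1351 genes. The member was Rpl22l1, at -0.10 (SE 0.04) in the second cycle, with an adjusted p of 0.498. Rpsa had 0.07 (SE 0.03) and Rplp2 0.06 (SE 0.03).

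Probe sets of the same gene often differed. Among 22 members with several tested probe sets, 49 sets were not the brightest, and 30 of these gave the same call between circadian times 18 and 10 as the brightest one (p adjusted over 27021 probe sets). In 6 genes the brightest set was not called higher and another was. Rps9, a small subunit protein involved in reading accuracy, had -0.09 on its brightest set (mean level 12.99) and 0.61 on the next (12.81). Rps18 had -0.06 on its brightest set (13.52) and 0.40 on the next (12.91), and Rpl35 0.06 (13.26) and up to 0.36 (12.79). Rpl22 was called on its brightest set (0.14 at 12.98) and the next (0.62 at 12.52), but not on its dimmest (-0.09 at 11.34). Disagreement also ran the other way, with the brightest set called higher and dimmer ones not. With this adjustment Rpl27 had 0.137 on its brightest set, called, and -0.010 and -0.005 on its others. Rps3 had 0.16, called, and -0.10 on its other tested set. Rps24 had 0.14, called, and its other sets ran from -0.34 to 0.19, with 3 of 5 called higher.

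Counted over any own probe set, 27 of 46 members were higher at circadian time 18 and 2 were lower, against 15.6% and 15.0% of all genes counted the same way. Over all 197 tested ribosomal protein probe sets, own or shared, 80 were higher and 5 lower, against 10.8% and 10.9% of all probe sets. Under a mean level of 12, 4 of 39 were higher and 3 lower, with a median difference of 0.09, and 10.1% of the probe sets of other genes at this level were higher. At mean levels of 12 to 13, 37 of 60 were higher, with a median of 0.18, against 24.6% of those of other genes. At 13 or more 39 of 98 were higher, with a median of 0.08, against 26.9%. Calls in this direction were thus more frequent among bright probe sets of other genes too. With 1 probe set per gene, at a mean of 13 or more, the median difference was 0.09 over 28 members and -0.005 over 79 other genes. It was above 0 in 82.1% of these members and in 49.4% of these other genes. In the rhythm test 18 of the 197 passed, against 16.0% of all probe sets tested, 11 of the 60 and 2 of the 98. Probe sets without an x or s mark for cross-hybridisation were also preferred, with a marked set kept where a gene has no other. With the brightest set chosen in this way, 6 members were rhythmic: Rpl22, Rpl35, Rps18, Rps20, Rps4l and Rps9. The set of Rps20 was dim (8.10), and the share over all genes was not counted for this choice.

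**Figure D4:**
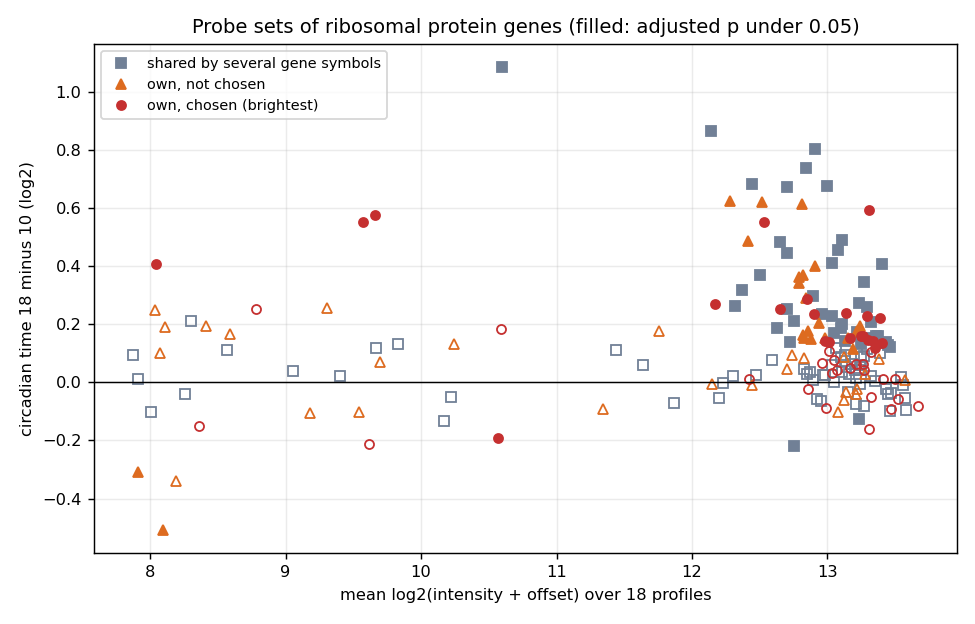
Difference between circadian times 18 and 10 in log2 units against mean level, for 197 tested probe sets of ribosomal protein genes. Filled symbols passed an adjusted p of 0.05; red circles are the brightest own probe set of a gene, orange triangles its other sets, and grey squares sets that carry several symbols. Differences above 0.4 lie mostly at mean levels of 12 to 13, and Rplp2, at 0.59, has the widest difference among the red circles.

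Genes of mitochondrial ribosomal proteins, which form the other ribosome of the cell, are set beside these values. Of 76 genes tested, 23 were rhythmic with the array set term (10 without it and 7 in the first set, against 17.9%, 12.8% and 12.3% of all genes). At circadian time 18, 41 were higher than at 10 and 2 lower, against 11.6% and 9.57% of all genes, with a median difference of 0.23. All 3 profiles of circadian time 10 lay below all other profiles in 40 of the 76 (52.6%), against 8.71% of all genes and 41.3% of the members. Levels of the mitochondrial genes were lower than those of the members (median 10.87), so the 2 groups differ in brightness, and a difference between them was not tested. Of 45 translation initiation factor genes tested, 15 were rhythmic (11 without the term and 10 in the first set), and 7 were higher and 9 lower at circadian time 18, with a median of -0.02. In 6 of the 45 (13.3%) all 3 profiles of circadian time 10 lay below all other profiles.

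Lists of genes that work with the ribosome gave the following counts. Of 19 other TOP messengers, elongation and initiation factors for the most part, 5 were rhythmic, 5 were higher and 6 lower at circadian time 18, where the shares over all genes tested were 17.9%, 11.6% and 9.57%. Eif4b, a cofactor of the helicase that opens messenger RNA, had an amplitude of 0.30 (SE 0.04) with its peak at circadian time 6.3, and Eif3f, a subunit of the initiation factor that binds the small subunit, 0.09 (SE 0.02) with its peak at 7.5. Both also passed in the first set (adjusted p = 0.0051 and 0.0484, limma). Eif3e, with its peak at 6.8, and Eif3k, with its peak at 19.4, did not pass there (adjusted p = 0.147 and 0.681, limma). Of the 19, 3 were rhythmic without the array set term and 2 in the first set, against 12.8% and 12.3% of all genes.

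Of 23 genes of mTOR signalling and TOP control, 6 were rhythmic, against the same 17.9% of all genes. Sesn2, a leucine sensor that restrains mTORC1, peaked at circadian time 7.2 (amplitude 0.42, SE 0.06), and Tial1, an RNA-binding protein that represses TOP messengers, at 18.4 (0.23, SE 0.03). Both passed within the first set. Tsc1, part of the complex that inhibits Rheb, peaked at 18.3 (0.39, SE 0.07) and did not pass there.

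RNA polymerase I makes the ribosomal RNA precursor, and 4 of 18 genes of its machinery were rhythmic (17.9% of all genes), with Polr1c, a subunit shared with polymerase III, at a peak of 23.1 (0.21, SE 0.04). Of 76 ribosome assembly factors 19 were rhythmic, 15 without the array set term and 21 in the first set, against 17.9%, 12.8% and 12.3% of all genes. Fbl, the methyltransferase fibrillarin, peaked at circadian time 17.8 (0.26, SE 0.04), and Nop16, Bysl and Nolc1, nucleolar assembly proteins, at 15.8, 13.6 and 12.5 (0.23, 0.25 and 0.20, each SE 0.04). All 4 passed in the first set as well. Median amplitudes were 0.081, 0.093, 0.116 and 0.108 for these 4 lists against 0.093 over all genes tested; the members' median was 0.038.

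The mean of the tested members over the profiles was 12.52 ± 0.02 (SD, n = 3) at circadian time 2, 12.53 ± 0.02 at 6, 12.34 ± 0.02 at 10, 12.52 ± 0.03 at 14, 12.47 ± 0.04 at 18 and 12.53 ± 0.01 at 22. Single members with wide differences weigh in this mean. At circadian time 10 the level minus the first-set mean was -1.15 in Rpl27a and -0.85 in Rps4l, both dim, against a median of -0.12 over the members. The genes outside the family whose levels followed the members' mean most closely over the 18 profiles were Sec61b, AI413582, Trmt112, Tmem258 and Polr2g, with Pearson correlations of 0.976, 0.962, 0.961, 0.961 and 0.960. All 5 shared the low level at circadian time 10, with differences between 18 and 10 of 0.41, 1.18, 0.30, 0.97 and 0.32. Because they were picked for likeness to a mean that is lowest at circadian time 10, this sharing follows from the choice. Their fitted array set differences were -0.47, -0.94, -0.36, -0.85 and -0.33. Over the 12 profiles of the first set the correlations were 0.450, 0.703, 0.508, 0.307 and 0.478.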

How the data were processed

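Intensity values were used as deposited by the authors, 1 table of 45101 probe sets by 24 columns on a linear scale, and their summarisation and scaling are not given in the sources used here. Precision is limited by the number of arrays, and there is no read depth. Each value was taken to log2(intensity + 51), 51 being the 10th percentile of the table, without further normalization. Probe sets were named from the platform annotation: 34945 had 1 symbol, 932 several and 9211 were not listed. Probe sets under the 40th percentile of mean level were left out, and the brightest per gene was kept (13880 genes).

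Column pairs whose ratios lay within 5% for every probe set with a signal of 50 or more were averaged (6 pairs, SD of the log2 ratio at most 0.042, against at least 0.217 in other pairs of the same circadian time). Array sets were told apart by a ThrX-3 signal of 300. Tests were moderated tests of limma 3.58.1 in R 4.3.3, with trend, Benjamini-Hochberg adjusted over all genes with a threshold of 0.05, and the scripts were tested on simulated data. Named genes were, by rule, members past the rhythm threshold, the extremes of level and of each test, paralogs and well-known members, and for other lists up to 4 genes with the lowest rhythm p. Examples of probe sets that disagree, and Rpl37, Rps10, Rpl38, Rpl35, Rps14 and Cela1, were named after their values were seen. The members and lists were chosen with earlier results of these data known.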

Additional observations from a re-analysis of the deposited data

How the results depend on the processing

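The count of rhythmic members (1) became 4 with a filter at the 60th percentile, 2 after quantile normalization, 6 with the brightest unmarked probe set, 4 with the mean of a gene's probe sets, 3 with the brightest probe set under a mean level of 13 (chosen after seeing the data, 31 members), 10 over all 24 columns and 0 within the first set. Leaving out each profile in turn gave 1 to 5. It stayed 1 under the other offsets, no filter, no array set term, the robust fit, the Gapdh ratio as a covariate, without the 4 profiles with Acta1 over 1000, and with a replicate block. Rps4l was called in 32 of 33 alternatives, with amplitudes from 0.23 to 0.41. The count of members that differed between circadian times 18 and 10 (21) became 13 after quantile normalization, 6 with the spread of the second set alone and 11 without the 4 profiles with Acta1 over 1000 (the last chosen after seeing the data); leaving out single profiles gave 17 to 24, and the replicate block, also added after seeing the data, 20. The array set count (23) was 14 of 31 with probe sets under a level of 13 and 17 to 24 with single profiles left out. The first-set count (0) was 0 to 1 with single profiles left out. The count between cycles was 0 in all 8 alternatives. Of the 28 named members, no called difference between circadian times 18 and 10 changed sign; over the alternatives, 40 of 914 amplitudes were newly called and 1 was lost, and 12 of 466 differences were newly called and 34 lost. The causes of these changes were not tested. Among these fits, shares over all genes were counted only for the main settings and for the rhythm fits without the array set term and within the first set. The other counts therefore have no share over all genes to be read against.

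Samples of a replicate number share only that number: deviations of profiles with the same number correlated at 0.04 on average (46 pairs) and those with different numbers at -0.03 (47 pairs). The time point as a random block could not be fitted, because 1 time point holds 2 profiles and the rest hold 1. With 18 profiles, small amplitudes in dim probe sets lie within the spread.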

Other observations

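Some ribosomal protein genes outside the measured members, named here after their values were seen, had wider differences between circadian times 18 and 10 on probe sets that carry several symbols. The probe set of Rpl32 and Rpl32l had 0.80, those of Rps12 and its pseudogene symbols from -0.02 to 1.09 (4 of 5 called higher), those of Rpl36 from 0.32 to 0.49 (3 of 3 called), and that of Rplp1, the second acidic stalk protein, 0.41. The sets of Rpl31 ran from -0.13 to 0.06 and those of Rpl5 from -0.05 to 0.12, with 0 called in either. Over 102 tested shared probe sets, 39 were higher at circadian time 18 and 2 lower, with a median difference of 0.09, against 10.8% and 10.9% of all probe sets tested. The signal of such a set cannot be assigned to 1 gene.

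Both dim own probe sets of Rps20 went the other way, with -0.51 and -0.31 at mean levels of 8.10 and 7.91, while its 2 bright sets had -0.05 and -0.03.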
